A study of Gallus gallus and Dromaius novaehollandiae and Alligator mississippiensis with 60 samples.

Results

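This group of 7 genes, from a table of 17889, had lower mean transcript levels in feather epidermis than in the epidermis of each foot appendage, in both chicken and emu, and was chosen by a rule on these measured values, of which it passed every criterion. In each bird, the mean log2(TPM + 1) of the lowest of scutate scale, reticulate scale and claw had to exceed the feather mean by at least 0.7, over both stages. Claws had to lie less than 1 above and less than 0.7 below the higher scale mean, and chicken epidermis had to average at least 2 TPM. TPM gives a transcript's abundance relative to all others in its library, corrected for gene length. Emu values were given for 8749 genes, and 6504 of those reached the chicken mean. Of these, 180 genes passed the foot criterion in chicken, 71 in emu and 19 in both. Claws lay too far above the scales for 8 of the 19 and too far below for 4, which left 7. Because this contrast chose the genes, their foot and feather levels are described below without a test.

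The members are ENSGALG00000016123, ENSGALG00000011166, ENSGALG00000000299, ENSGALG00000009514, ENSGALG00000007280, ENSGALG00000006722 and ENSGALG00000014244, in falling order of the smaller of their 2 gaps in the birds, which ran from 1.60 to 0.70. The files pair these identifiers with no gene names and the annotation used here matched none, so no function or sequence is given for them. At the threshold, ENSGALG00000014244 with a smaller gap of 0.70 and ENSGALG00000006722 with 0.71 lay just inside, and ENSGALG00000012374 with 0.69 and ENSGALG00000009344 with 0.68 lay just outside.

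Bird skin makes several kinds of appendage from the same 2 layers, an epidermis that forms the hard parts and a dermis beneath it that signals to it. Feathers begin as round thickenings of epidermis called placodes, which then grow out as buds. On the foot, scutate scales are the large overlapping plates along the front of the shank, reticulate scales are the small round bumps of the sole, and claws are the sheaths over the toe tips. Crocodilians such as the alligator carry scales over the body and claws on the toes, and have no feathers.

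The study profiled polyadenylated RNA of embryonic skin in chicken (Gallus gallus), emu (Dromaius novaehollandiae) and alligator embryos, with 60 libraries in all. Epidermis was parted from dermis with the enzyme dispase. The bird foot groups were claw epidermis at Hamburger and Hamilton stages 38 (morphogenesis) and 36 (placode), scutate scale epidermis at stages 40 and 37, and reticulate scale epidermis at stages 40 and 39. The bird feather groups were femoral and dorsal feather epidermis at stages 36 (morphogenesis) and 33 to 34 (placode). The labels call the emu femoral tract flank/femoral. Each group held 2 libraries, except that emu reticulate scale placode and emu claw placode held 1 each, so that chicken had 12 foot and 8 feather libraries and emu had 10 and 8. Chicken dermis was sampled once for each of the 5 skin regions at both stages, 10 libraries in all. Alligator epidermis came from foot claws at Ferguson stages 22 (morphogenesis) and 21 (placode), from asymmetric femoral scales at stages 23 to 24 and 21, and from symmetric flank scales at stages 23 and 22, with 2 libraries in each group. Feather and foot libraries differed in embryo stage as well as in appendage except at stage 36, where claw placodes and feather buds were both sampled. In most other comparisons of foot with feather, appendage and age cannot be told apart. In emu the labelled lanes also followed appendage for the most part. Scutate scale was in lane 2, reticulate scale in lane 1 and claw in lanes 8 and 1. The emu feather libraries with a labelled lane were in lanes 6, 7 and 2, and the rest carry none. Lane and appendage can therefore mostly not be told apart in emu.

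Values of a chicken library added up to 994044 to 999897 TPM. Emu libraries added up to 549879 to 549939 TPM, and alligator libraries to 619786 to 619877 TPM, so levels are compared within a species. Genes marking the layers were taken from the chicken data, 59 for epidermis and 193 for dermis. The dermis genes summed to 576 to 3482 TPM in the 12 chicken foot epidermis libraries, with a median of 699, and to 868 to 1411 TPM in the 8 feather libraries, with a median of 1242. The highest sum, 3482 TPM, belonged to replicate 2 of chicken claw placode epidermis, and the next highest foot library held 1135 TPM. Without that library the rule gave 5 members, and ENSGALG00000006722 and ENSGALG00000014244 were lost. Several of the stage comparisons that include it are also given without it. TPM depends on what else a library holds: over the 6504 genes the median difference of the foot mean from the feather mean was -0.25 in chicken and -0.13 in emu on the log2 scale, and it was -0.011 and 0.0031 after median-of-ratios rescaling.

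In chicken epidermis, 10 or 11 of the 12 foot libraries held more than any feather library for 6 of the 7 members, and 5 of 12 did for ENSGALG00000009514. No member separated the groups completely. ENSGALG00000016123 ran from 16.7 to 40.6 TPM over the 12 foot libraries, with a median of 33.3, against 3.01 to 18.4 TPM over the 8 feather libraries, with a median of 8.59. Its 3 foot appendages lay close together, with log2 means of 4.93 in claw, 5.06 in scutate scale and 5.10 in reticulate scale, against 3.22 in feather. The overlap came from 1 library on each side, claw placode replicate 1 at 16.7 TPM and dorsal feather morphogenesis replicate 1 at 18.4 TPM. ENSGALG00000011166 ran from 2.51 to 74.2 TPM in the foot with a median of 13.8, against 0.105 to 2.99 TPM in feathers with a median of 1.16. Claw morphogenesis held 49.1 and 59.2 TPM of it and scutate morphogenesis 74.2 and 33.1 TPM, but reticulate morphogenesis held only 3.24 and 6.36 TPM.

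ENSGALG00000000299 was an abundant transcript throughout chicken epidermis, with 73.1 to 552 TPM and a median of 311 in the foot, against 40.9 to 131 TPM and a median of 72.5 in feathers. In all, 10 of the 12 foot libraries exceeded the highest feather library. ENSGALG00000009514 overlapped most: it held 5.05 to 41.4 TPM in the foot with a median of 18.2, against 1.53 to 19.1 TPM in feathers with a median of 6.12, and 5 of 12 foot libraries exceeded every feather library. The feather values were split by stage, with all 4 morphogenesis libraries above 8 TPM and all 4 placode libraries below 4 TPM.

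ENSGALG00000007280 had the highest levels of the 7 in chicken. It held 562 to 1689 TPM in the foot with a median of 1312, against 402 to 680 TPM in feathers with a median of 478, so its lower feather level was still that of an abundant transcript. ENSGALG00000006722 was also abundant on both sides, with 212 to 581 TPM in the foot and a median of 339, against 130 to 249 TPM in feathers and a median of 185. ENSGALG00000014244 was the scarcest, with 0.567 to 13.4 TPM in the foot and a median of 6.16, against 0.680 to 1.34 TPM in feathers and a median of 0.956. Its 2 chicken scutate placode libraries, at 0.567 and 0.641 TPM, lay below every feather library, whereas the other 10 foot libraries, at 2.54 TPM or more, lay above all of them.

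**Figure D1:**
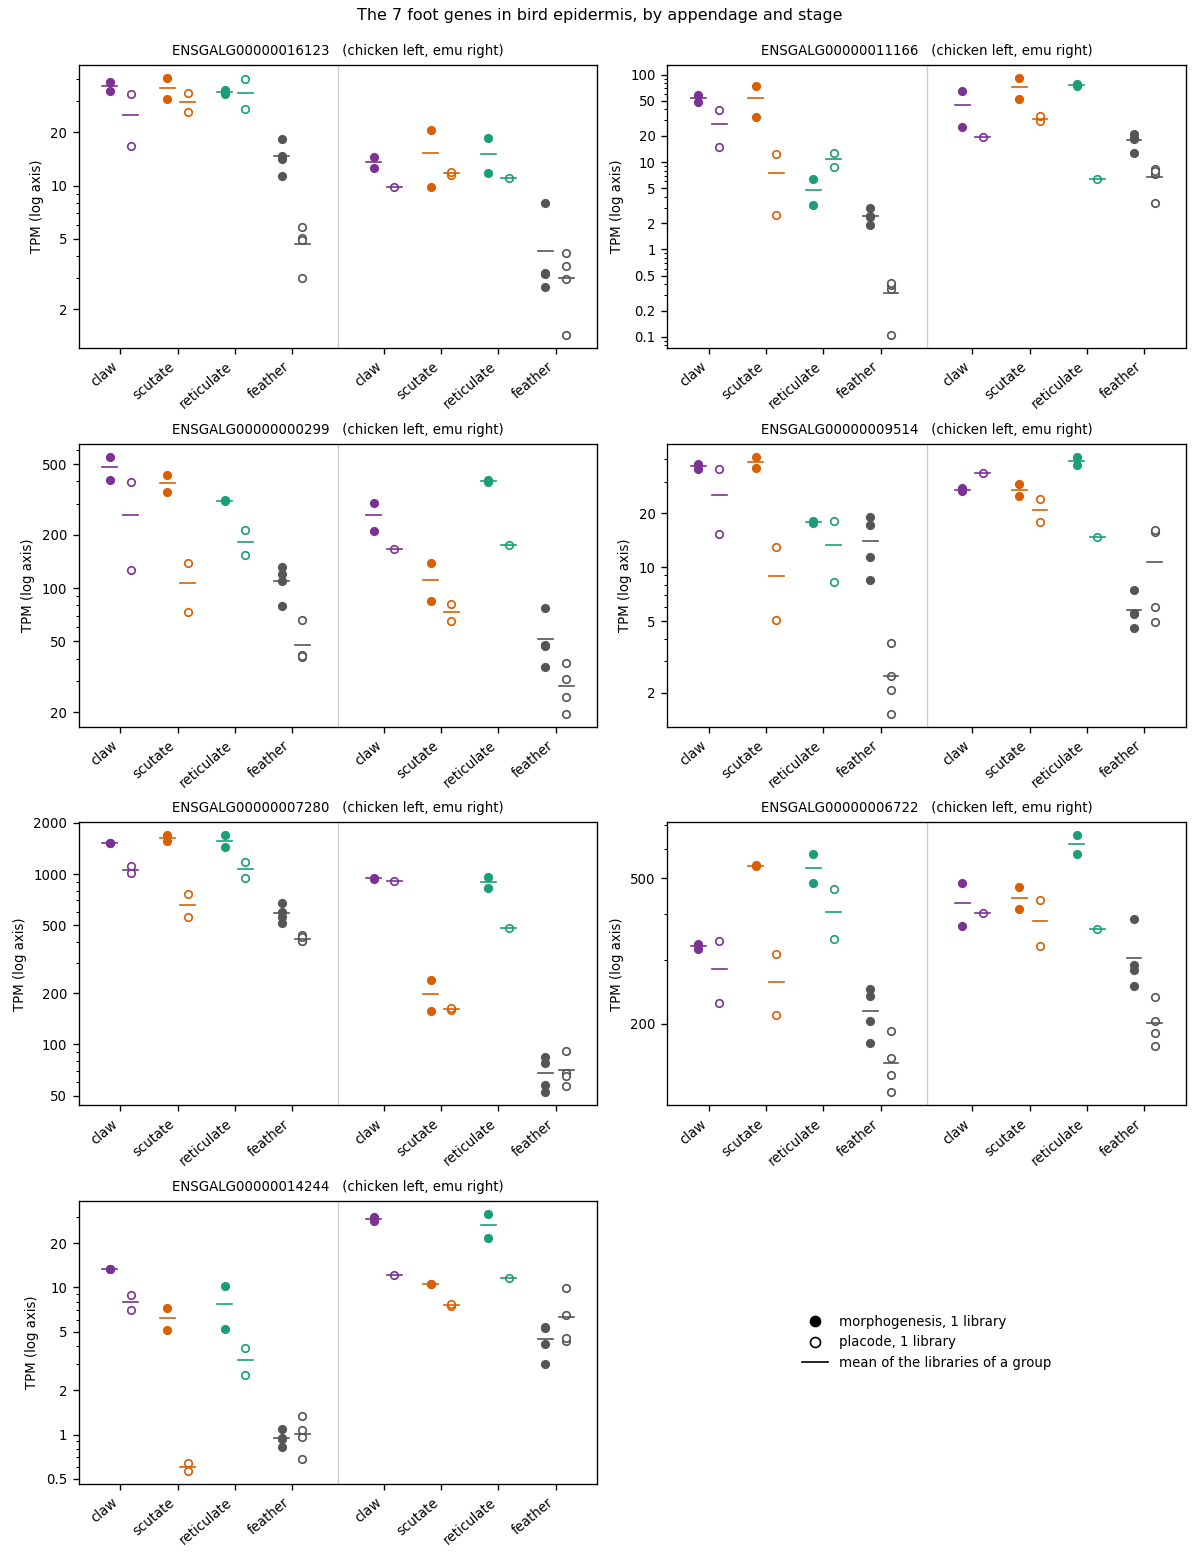
TPM of each member in every chicken and emu epidermis library on a log axis, by appendage, with morphogenesis libraries as filled points left of placode libraries as open points and a line at each group mean. Feather libraries sit lowest in most panels, with overlaps such as the chicken scutate placode libraries of ENSGALG00000014244 at 0.567 and 0.641 TPM.

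In emu, 2 members did not overlap between foot and feather. ENSGALG00000016123 ran from 9.88 to 20.7 TPM in the 10 foot libraries, with a median of 11.8, against 1.43 to 8.02 TPM in the 8 feather libraries, with a median of 3.18. ENSGALG00000007280 ran from 157 to 955 TPM in the foot, with a median of 659, against 52.3 to 91.7 TPM in feathers, with a median of 66.4. Within the emu foot ENSGALG00000007280 fell into tiers: claw held 945, 939 and 910 TPM and reticulate scale 833, 955 and 485 TPM, against 157 to 238 TPM in scutate scale.

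ENSGALG00000000299 held 65.3 to 408 TPM in emu foot against 19.6 to 76.9 TPM in emu feather, and its highest values were the 2 reticulate morphogenesis libraries, at 408 and 398 TPM. ENSGALG00000009514 held 14.7 to 41.1 TPM in foot against 4.61 to 16.2 TPM in feather, with the 2 dorsal feather placode libraries at 15.7 and 16.2 TPM and the other 6 feather libraries below 8 TPM. ENSGALG00000006722 held 327 to 656 TPM in foot against 174 to 387 TPM in feather, and 7 of its 10 foot libraries exceeded every feather library. ENSGALG00000014244 held 7.51 to 31.6 TPM in foot against 3.02 to 9.85 TPM in feather. ENSGALG00000011166 held 6.4 to 91.5 TPM in foot against 3.36 to 21.2 TPM in feather, a higher feather level than in chicken relative to the foot. Its low foot value was the single reticulate placode library at 6.4 TPM, while the 2 reticulate morphogenesis libraries held 75.1 and 78.8 TPM.

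Every foot library lay above every feather library for 0 of 7 members in chicken, where 0.753% of the 6504 genes did so, for 2 of 7 in emu, where 0.876% did, and for 0 of 7 in both birds, where 0.0769% did. The rule used these values, so nothing is read from the counts.

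Stage 36 is the one age at which foot and feather were both sampled, as claw placode and feather morphogenesis. The rule used these libraries too, so nothing is read from the counts of members at this stage. In chicken, both claw libraries exceeded all 4 feather libraries for 3 of 7 members, against 12.9% of all 6504 genes. ENSGALG00000011166 held 14.8 and 39.4 TPM in claw against 1.89 to 2.99 TPM in feather, ENSGALG00000007280 held 1117 and 1008 TPM against 515 to 680 TPM, and ENSGALG00000014244 held 7.08 and 8.82 TPM against 0.823 to 1.10 TPM. The differences between claw and feather means at this stage were 2.90, 0.86 and 2.19 on the log2 scale for these 3 genes, while the median over all genes was -0.45. For the remaining 4 members the higher claw level rested on replicate 2. That library also had the high dermis sum, and the part of dermal RNA in its values was not tested. It held 395 TPM of ENSGALG00000000299, 35.4 of ENSGALG00000009514 and 336 of ENSGALG00000006722, against 12.5, 2.69 and 14.4 TPM in claw placode dermis. For ENSGALG00000016123 these were 33.2 TPM and 117 TPM. With claw replicate 1 alone the difference from the feather mean was 0.20 for ENSGALG00000016123, 0.22 for ENSGALG00000000299, 0.18 for ENSGALG00000009514 and 0.081 for ENSGALG00000006722, and it was 2.22, 0.93 and 2.05 for ENSGALG00000011166, ENSGALG00000007280 and ENSGALG00000014244.

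Claw replicate 1 carries the same specimen number as a dorsal and a femoral feather library of stage 36, which allows a comparison within what the titles give as 1 specimen. ENSGALG00000011166 held 14.8 TPM in its claw against 2.36 and 2.41 TPM in its feathers, and ENSGALG00000014244 held 7.08 TPM against 0.938 and 1.10 TPM. ENSGALG00000007280 held 1117 TPM in claw against 680 and 515 TPM. ENSGALG00000006722 held 228 TPM in claw against 249 and 203 TPM in feather, and ENSGALG00000000299 held 125.8 TPM against 131 and 79.1 TPM. In these last 2 genes the claw value lay between the 2 feather values, as it did for ENSGALG00000009514, at 15.3 TPM against 17.2 and 8.45 TPM. ENSGALG00000016123 lay slightly above both, at 16.7 TPM against 14.1 and 11.4 TPM.

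In emu the single claw placode library of stage 36 exceeded all 4 feather morphogenesis libraries for 6 of 7 members, against 23.9% of all genes. The difference was largest for ENSGALG00000007280, at 910 TPM in claw against 52.3 to 84.6 TPM in feather, or 3.75 on the log2 scale. It was 2.36 for ENSGALG00000009514, at 33.6 against 4.61 to 7.50 TPM, and 1.71 for ENSGALG00000000299, at 166 against 35.9 to 76.9 TPM. The exception was ENSGALG00000011166, at 19.3 TPM in claw and 12.9 to 21.2 TPM in feather, a difference of 0.13. One library gives no replicate spread for this comparison, and nothing is read from the count, because the rule used these libraries.

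The scutate placode libraries are 1 stage older than the feather morphogenesis libraries, at stage 37 against 36. Both sets entered the rule, so the counts of members here are descriptions. In chicken both scutate placode libraries exceeded all 4 feather libraries for 1 of 7 members, ENSGALG00000016123, at 33.5 and 26.1 TPM against 11.4 to 18.4 TPM, where 18% of all genes did so. In emu they did for 5 of 7, where 13.4% of all genes did. The 2 emu exceptions were ENSGALG00000000299, at 65.3 and 81.4 TPM against 35.9 to 76.9 TPM, and ENSGALG00000006722, at 327 and 437 TPM against 254 to 387 TPM. In chicken, ENSGALG00000014244 lay below all 4 feather libraries, at 0.567 and 0.641 TPM against 0.823 to 1.10 TPM, and the other 5 members overlapped.

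**Figure D2:**
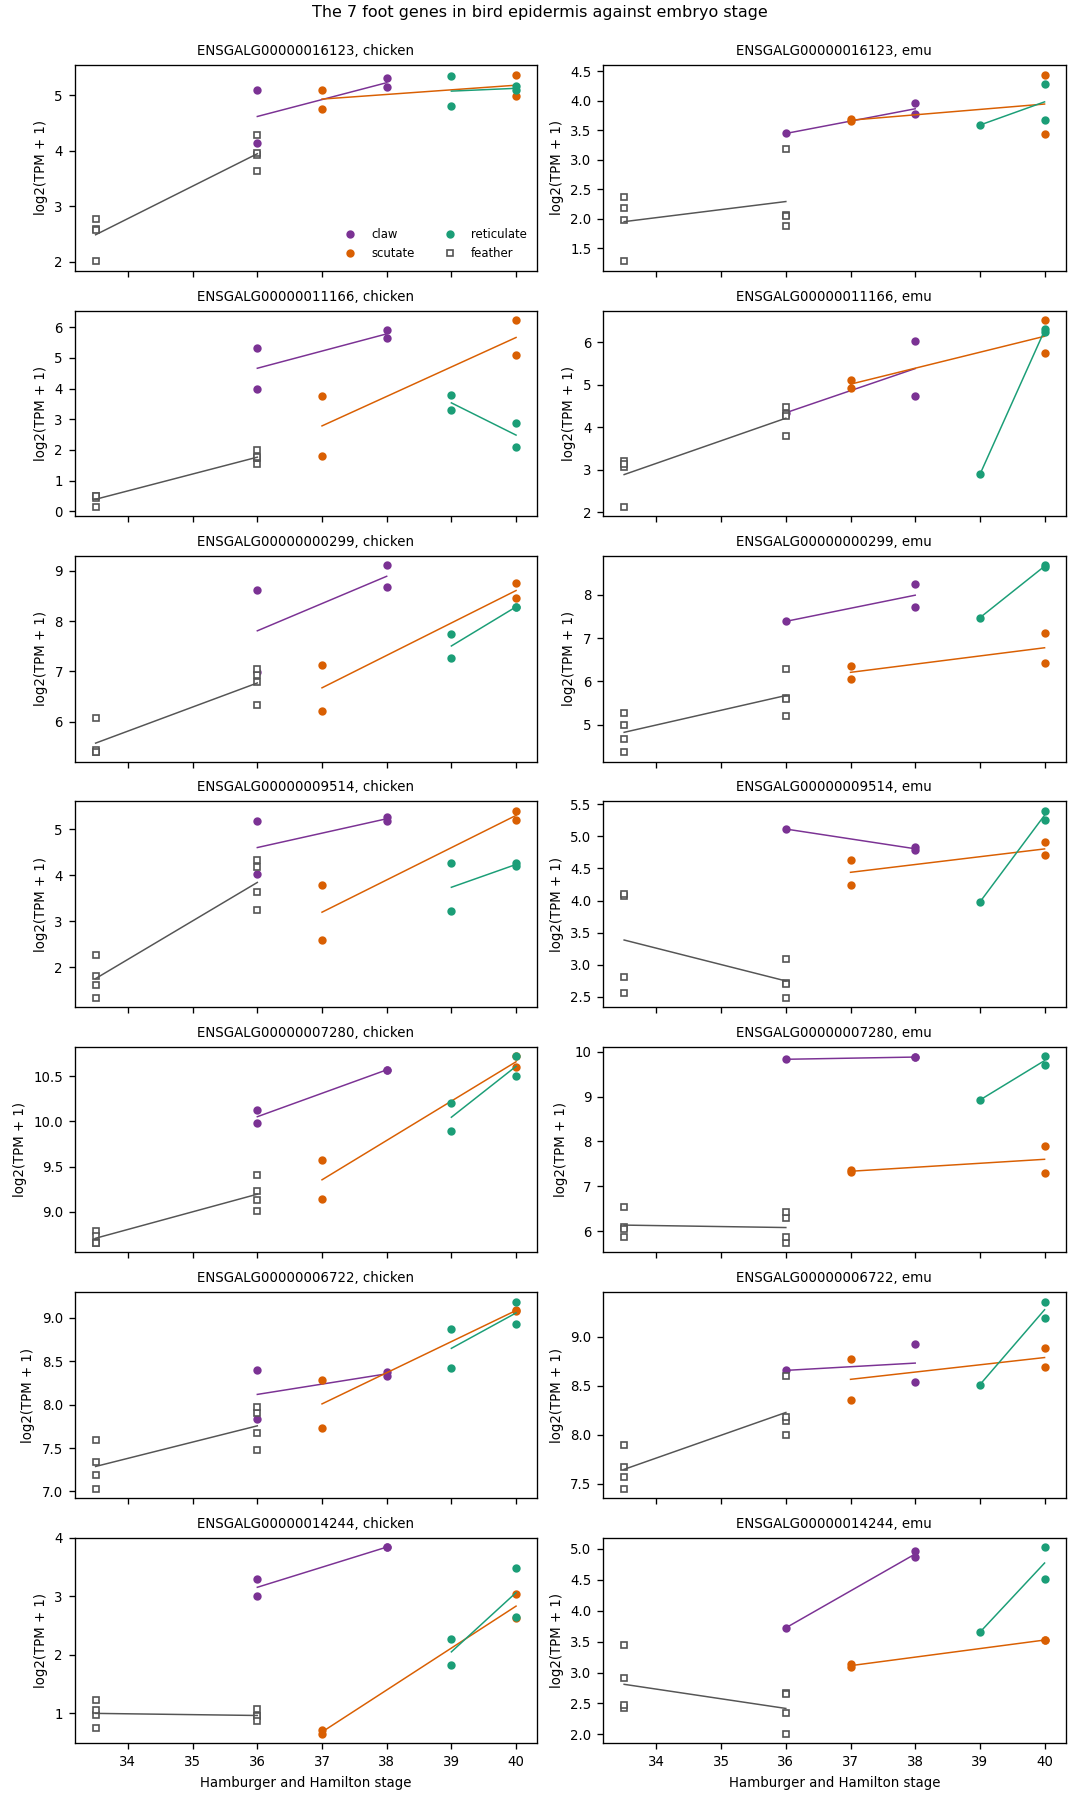
Log2(TPM + 1) of each member in chicken and emu epidermis against Hamburger and Hamilton stage, with each point 1 library, filled circles for foot appendages, open squares for feathers and lines joining stage means. Feather libraries end at stage 36 and foot libraries begin there, and the steepest climbs within the foot include ENSGALG00000011166 in emu reticulate scale, at 75.1 and 78.8 TPM at stage 40 against 6.4 TPM at stage 39.

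The comparison of stages within an appendage was not a criterion of the rule. It asked whether the members changed between placode and morphogenesis, and it was fitted with limma on log2(TPM + 1) over the 6776 genes that passed a filter on low values in both birds, a filter all 7 members passed. Across claw, scutate and reticulate epidermis of both birds, 6 of 7 members were higher at morphogenesis, where 12.2% of all genes were. The median difference of the members was 0.77 on the log2 scale, against -0.093 over all genes. The stage counts in bird epidermis are not independent of the rule, which used the same libraries. Foot libraries were mostly older than feather libraries, so a gene that rises with age could pass more easily. Emu reticulate scale and claw means also held fewer placode than morphogenesis libraries. With stages weighted equally, ENSGALG00000011166 was no longer a member. Its emu claw mean then lay too far below its scutate mean, while its gap between foot and feather still passed. The p-values speak only of the variation among the libraries at hand, which the series' design text calls biological replicates.

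The log2 difference was 1.42 for ENSGALG00000011166, the most of the 7 (SE 0.23, adjusted p = 7.9e-05), although chicken reticulate scale went the other way, with 3.24 and 6.36 TPM at morphogenesis against 8.75 and 12.7 TPM at placode. For ENSGALG00000014244 it was 1.10 (SE 0.12, adjusted p = 1.2e-06). Chicken scutate scale had 7.25 and 5.15 TPM of it at morphogenesis against 0.567 and 0.641 TPM at placode, and emu reticulate scale had 21.8 and 31.6 TPM against 11.6 TPM. That of ENSGALG00000000299 was 1.03 (SE 0.18, adjusted p = 0.00015). It had 435 and 350 TPM in chicken scutate scale at morphogenesis against 73.1 and 139 TPM at placode. The log2 increases of ENSGALG00000009514, ENSGALG00000007280 and ENSGALG00000006722 were 0.77, 0.60 and 0.46, with adjusted p of 0.00035, 6.0e-05 and 0.00045 by limma. ENSGALG00000016123 was the one member not called, at 0.33 (SE 0.16, adjusted p = 0.094). Without claw placode replicate 2 of chicken, the library that stands apart, the difference of ENSGALG00000016123 was 0.41. It was 0.42 without emu scutate morphogenesis replicate 2, and a call for this gene appeared under both other scalings.

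Over all called genes in this comparison, 28.3% were higher at morphogenesis, and 53.6% were after median-of-ratios rescaling, which moved the median of all genes to 0.0062. The increases of the members were 0.44 to 1.52 under that rescaling. All 7 were called, but the share of all genes called higher is not given under that rescaling, so nothing is read from the count.

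By appendage, the increase was called for 6 of 7 members in scutate scale, where 5.58% of all genes rose, for 5 of 7 in reticulate scale, where 5.83% rose, and for 1 of 7 in claw, ENSGALG00000014244, where 7.48% rose. The scutate increases ran from 0.65 for ENSGALG00000006722 to 2.0 for ENSGALG00000011166, apart from ENSGALG00000016123 at 0.26 (SE 0.25). The claw differences of the other 6 members were 0.16 to 1.08 and did not pass the threshold. Without claw placode replicate 2 of chicken, 4 of 7 members were called in claw, where 11.7% of all genes rose: ENSGALG00000011166 at 1.42 (adjusted p = 0.015 by limma), ENSGALG00000000299 at 1.26 (adjusted p = 0.0022), ENSGALG00000014244 at 1.01 (adjusted p = 0.0022) and ENSGALG00000016123 at 0.75 (adjusted p = 0.049). Whether the stage difference itself differed between claw and scales was not tested. Claws were sampled at stages 36 and 38 and scutate scales at stages 37 and 40, so the intervals also differ. By bird, 6 of 7 were called in chicken, where 13.1% of all genes rose, and 2 of 7 in emu, ENSGALG00000011166 and ENSGALG00000014244, where 4.31% rose. A fit of emu alone called 4 of 7, adding ENSGALG00000000299 at 0.79 (adjusted p = 0.027 by limma) and ENSGALG00000009514 at 0.47 (adjusted p = 0.018). The 4.31% belongs to the joint fit, and the share of all genes in the fit of emu alone is not given, so nothing is read from its count. In the test of the difference between birds, 0 of 7 members were called, where 11% of all genes were, and 0 had an unadjusted p under 0.05 by limma. The sizes of the differences between birds depend on claw placode replicate 2 of chicken. Leaving it out leaves 1 library in its group. Without it the chicken change exceeded the emu change by 0.80 for ENSGALG00000009514 and by 0.75 for ENSGALG00000000299. These were the largest differences among the 7, and they were not called either.

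In feather epidermis, 5 of 7 members were higher at morphogenesis, where 19.5% of all genes were. The log2 difference of ENSGALG00000011166 was 1.35 (SE 0.26, adjusted p = 0.00048). It had 1.89 to 2.99 TPM at morphogenesis against 0.105 to 0.418 TPM at placode in chicken, and 12.9 to 21.2 TPM against 3.36 to 8.28 TPM in emu. Neither bird's values overlapped between stages. ENSGALG00000000299, ENSGALG00000016123, ENSGALG00000009514 and ENSGALG00000006722 rose by 1.02, 0.90, 0.73 and 0.52, with adjusted p of 0.00056, 0.00051, 0.0022 and 0.00057 by limma. ENSGALG00000007280 differed by 0.22 (SE 0.11, adjusted p = 0.13) and ENSGALG00000014244 by -0.21 (SE 0.13, adjusted p = 0.23), and neither was called. The call for ENSGALG00000007280 appeared without emu dorsal feather placode replicate 2, at 0.30 (adjusted p = 0.034), or without emu dorsal feather morphogenesis replicate 2, at 0.29 (adjusted p = 0.049). In the parts of the fit for each bird, 6 of 7 were called in chicken, where 20.3% of all genes rose, and 2 of 7 in emu, where 7.51% rose. By the numbers in their titles, many of these libraries are a femoral and a dorsal tract of 1 specimen and so are not independent. With the tracts of a specimen averaged, which left 2 chicken and 3 emu specimens at each stage, 4 of 7 members were called, where 12.1% of all genes rose, and ENSGALG00000009514 was not, at 0.76 (adjusted p = 0.056 by limma). By bird, 3 of 7 were then called in chicken, where 10.0% rose, and 1 of 7 in emu, where 4.44% rose.

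The birds differed in 2 members. In chicken feathers ENSGALG00000009514 had 19.1, 17.2, 11.4 and 8.45 TPM at morphogenesis against 2.48, 3.79, 1.53 and 2.06 TPM at placode, a log2 difference of 2.09. In emu feathers it had 7.50, 5.56, 4.61 and 5.52 TPM at morphogenesis against 15.7, 16.2, 4.92 and 5.98 TPM at placode, a difference of -0.64 that came from the dorsal tract. The chicken difference exceeded the emu difference by 2.73 (SE 0.34, adjusted p = 9.5e-06 by limma). For ENSGALG00000016123 the chicken difference was 1.46 and the emu difference 0.34, and they differed by 1.12 (SE 0.36, adjusted p = 0.032). Of all genes, 9.45% were called higher in chicken in this test. With the tracts of a specimen averaged, the difference between birds was 2.66 for ENSGALG00000009514 (adjusted p = 0.0071 by limma) and 1.24 for ENSGALG00000016123 (adjusted p = 0.072), which was not called, and 2.88% of all genes were called higher in chicken.

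The change with stage also differed between foot and feather for 2 of 7 members, where 34.7% of all genes were called in either direction, a background above the members' share. The change of ENSGALG00000014244 was greater in the foot: the 2 log2 changes differed by 1.31 (SE 0.18, adjusted p = 1.2e-05). In chicken feathers it had 0.823 to 1.10 TPM at morphogenesis against 0.680 to 1.34 TPM at placode. For ENSGALG00000007280 the difference of changes was 0.38 (SE 0.15, adjusted p = 0.047). Without claw placode replicate 2 of chicken these were 1.33 (adjusted p = 1.2e-05 by limma) and 0.37 (adjusted p = 0.058), and with the feather tracts of a specimen averaged 1.33 (adjusted p = 0.00021) and 0.31 (adjusted p = 0.14), so the call for ENSGALG00000007280 was lost in both. Within chicken 3 of 7 members were called in either direction, where 32.8% of all genes were: the change of ENSGALG00000014244 was greater in the foot, with a difference of 1.32, and the changes of ENSGALG00000016123 and ENSGALG00000009514 were greater in feathers, with differences of -1.16 and -1.02. Without claw placode replicate 2 the difference was 1.37 for ENSGALG00000014244 and -0.82 for ENSGALG00000009514, and all 3 genes were called. Within emu the change was greater in the foot for 2 of 7 members, ENSGALG00000014244 with a difference of 1.30 and ENSGALG00000009514 with 1.11, where it was for 3.25% of all genes. With tracts averaged, ENSGALG00000009514 was called in neither bird, at -1.02 in chicken and 1.03 in emu (adjusted p = 0.16 in each by limma).

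**Figure D3:**
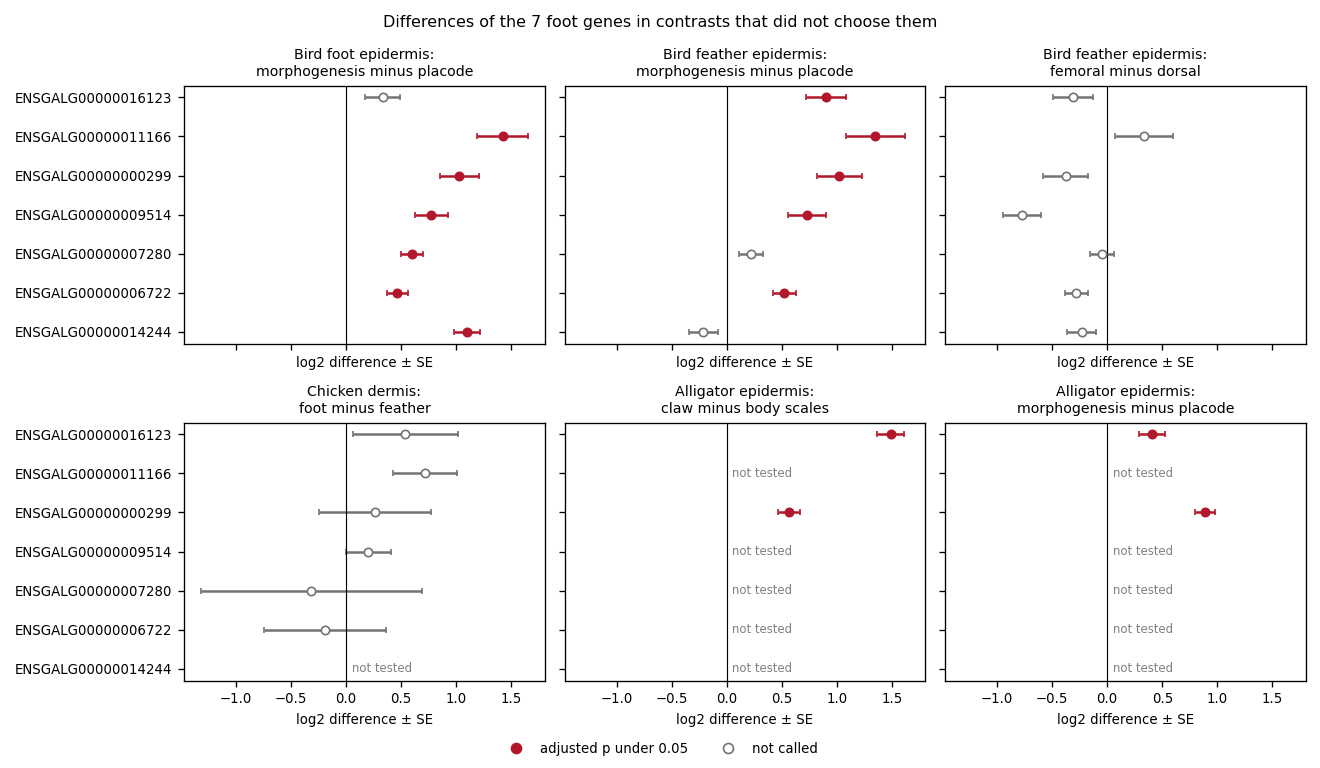
Log2 differences with their standard errors for the 7 members in 6 contrasts that were not criteria of the rule, filled where the adjusted p was under 0.05. In the foot panel 6 of 7 members are filled, in the feather panel 5 of 7, and in the femoral against dorsal panel and the dermis panel 0.

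Femoral feathers grow on the leg and dorsal feathers on the back, although the labels call the emu femoral tract flank/femoral. Between these tracts 0 of 7 members were called, where 0.0443% of all genes were, and 2 of 7 had an unadjusted p under 0.05 by limma. Those were ENSGALG00000009514, at -0.77 on the log2 scale (SE 0.17, adjusted p = 0.097), and ENSGALG00000006722, at -0.28 (SE 0.11, adjusted p = 0.43). In emu ENSGALG00000009514 held 4.92 and 5.98 TPM in femoral placode against 15.7 and 16.2 TPM in dorsal placode. In chicken it held 11.4 and 8.45 TPM in femoral morphogenesis against 19.1 and 17.2 TPM in dorsal morphogenesis. Feathers of the femoral or flank/femoral tract thus held no more of it than back feathers in any of these pairs. The difference was called in a fit of emu alone, at -0.85 (adjusted p = 0.030 by limma). A fit of both birds without chicken claw placode replicate 2 gave the same -0.77 and a call. That foot library does not enter the difference itself, but it bears on the estimate of the spread and on which genes were tested. Among emu dorsal libraries the labels give a lane only for placode replicate 2, lane 6, while the emu femoral libraries were in lanes 7 and 2. Whether lane and tract go together there is therefore unknown.

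In chicken dermis, with 1 library for each skin region and stage, 0 of the 6 members tested were called between foot and feather, where 8.92% of genes were. The difference was positive for 4 of the 6, where it was for 40.6% of genes. Among the 7 members, 5 were higher in epidermis than in dermis in 10 of 10 pairs of the same appendage and stage: ENSGALG00000000299, ENSGALG00000009514, ENSGALG00000007280, ENSGALG00000006722 and ENSGALG00000014244. Of the 6504 genes, 13.7% were. The rule used the epidermis values and asked for high levels in foot epidermis, so nothing is read from this count. ENSGALG00000016123 was higher in epidermis in only 2 of 10 pairs and ENSGALG00000011166 in 3 of 10. ENSGALG00000016123 reached 163, 97.2 and 53.7 TPM in claw, scutate and reticulate dermis at morphogenesis, and 160 and 143 TPM in femoral and dorsal feather dermis at morphogenesis. At morphogenesis all 5 of these dermis values exceeded its values in the matching epidermis, and the feather dermis values lay between those of claw and scutate dermis. In bulk samples such as these, fewer cells of a type and less RNA per cell cannot be told apart.

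For ENSGALG00000016123 and ENSGALG00000011166, which were higher in dermis in most pairs, the sum of the 193 dermis genes is given beside their epidermis levels. Its median was 699 TPM in foot epidermis, with a range of 576 to 3482 TPM. In feather epidermis the median was 1242 TPM and the range 868 to 1411 TPM. In claw placode replicate 2, with the high dermis sum of 3482 TPM, ENSGALG00000016123 stood at 33.2 TPM against 16.7 TPM in replicate 1, and ENSGALG00000011166 at 39.4 against 14.8 TPM. Claw placode dermis held 117 TPM of ENSGALG00000016123 and 3.41 TPM of ENSGALG00000011166. The part of dermal RNA in these values was not tested.

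Between foot and feather dermis, fitted with appendage and stage as terms, 0 of the 6 members that passed the filter were called, where 8.92% of the 12860 genes tested were, and 1 had an unadjusted p under 0.05 by limma. All foot dermis libraries lay above all feather dermis libraries for 0 of 7 members, where 2.34% of genes did so. ENSGALG00000011166 came nearest, with 1.64 to 25 TPM in 6 foot libraries and a median of 9.08 TPM, against 2.78 to 8.59 TPM in 4 feather libraries and a median of 4.33 TPM, a log2 difference of 0.71 (SE 0.29, adjusted p = 0.16). Without the femoral feather morphogenesis library it was 1.06 (adjusted p = 0.028). Its reticulate dermis held 20.6 and 25 TPM and was 2.07 above feather dermis on the log2 scale (SE 0.39, adjusted p = 0.023 by limma), 1 of 6 members in a comparison where 4.29% of genes were higher. Reticulate morphogenesis was the foot class in which the epidermis held least of this gene. The 4 feather dermis libraries carry only the specimen numbers 17 and 97, each on both tracts, but entered the dermis fit as independent libraries. Reticulate dermis was of stages 39 and 40 and feather dermis of stages 33 to 36, so appendage and age cannot be told apart. Claw dermis taken alone was above feather dermis for 5 of 6 members, where 45.6% of genes were. The median log2 difference was 1.11, against -0.037 over all genes. Claw morphogenesis dermis lay above every feather dermis library for ENSGALG00000000299, at 3.06 TPM, and ENSGALG00000016123, at 163 TPM. It lay below all of them for ENSGALG00000007280, at 2.36 TPM, and ENSGALG00000011166, at 1.64 TPM. For ENSGALG00000006722 and ENSGALG00000009514 it lay within their range. In claw 0 of 6 were called, where 10.3% of genes were, and 2 had an unadjusted p under 0.05 by limma. For scutate and reticulate dermis the medians of the members were -0.22 and -0.29. Claw placode dermis also had the highest sum of epidermis genes, as given below. ENSGALG00000014244 was below the filter, at 0.0410 to 0.585 TPM over the 10 dermis libraries.

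The remaining 4 members had lower levels in dermis than in the matching epidermis throughout. ENSGALG00000009514 ran from 0.963 to 2.69 TPM over the 10 dermis libraries, highest in claw placode. ENSGALG00000007280 and ENSGALG00000006722 were highest in claw placode and next in dorsal feather placode. ENSGALG00000000299 was highest in claw placode, and claw morphogenesis dermis followed with 3.06 TPM. Claw placode dermis held 82.8 TPM of ENSGALG00000007280, 14.4 TPM of ENSGALG00000006722 and 12.5 TPM of ENSGALG00000000299. Dorsal feather placode dermis held 19.1, 6.38 and 2.81 TPM of these 3 genes. The claw placode and dorsal feather placode libraries had the highest sums of the 59 epidermis genes, 619 and 516 TPM, while the other foot dermis libraries held 257 to 331 TPM and the other feather dermis libraries 280 to 325 TPM. Whether epidermal RNA accounts for these values was not tested. Of the 59 epidermis genes, 16 were higher in foot dermis than in feather dermis. Of the 12299 genes with a dermis mean of at least 1 TPM, 4916 were. The median differences were -0.15 and -0.076. These values pool all foot dermis libraries and do not speak of the claw placode library alone.

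**Figure D4:**
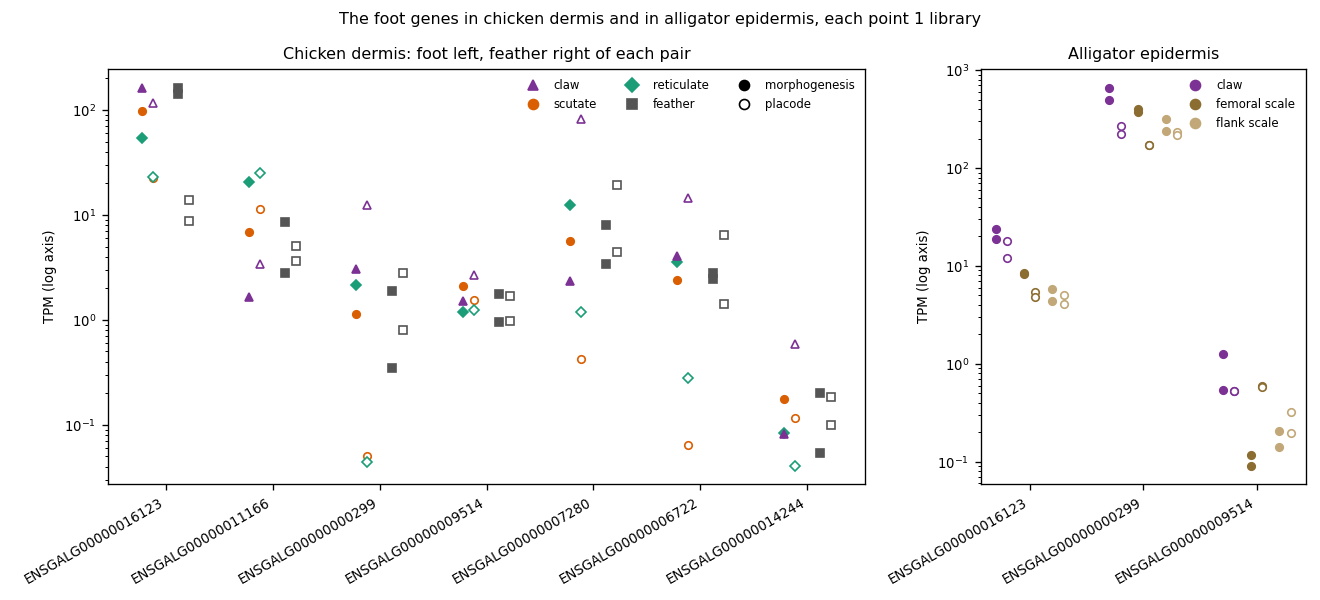
TPM on a log axis in chicken dermis (left panel, foot libraries left of feather libraries for each gene) and alligator epidermis (right panel, claw left of femoral and flank scales), filled for morphogenesis and open for placode, with each point 1 library. Foot and feather dermis overlap for every member, and the 4 alligator claw libraries of ENSGALG00000016123, at 12.1 to 23.7 TPM, lie above the 8 scale libraries.

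Alligator values were given for 3 of the 7 members, while 73.0% of the 6504 genes had them, and no value was used for the other 4. ENSGALG00000016123 was higher in claws than in body scales. It held 18.6 and 23.7 TPM in claw at morphogenesis and 12.1 and 17.9 TPM at placode. In femoral scales it held 8.21 and 8.52 TPM at morphogenesis and 5.39 and 4.81 TPM at placode, and in flank scales 5.85, 4.36, 5.10 and 4.12 TPM over both stages. All 4 claw libraries exceeded all 8 scale libraries for 1 of 3 members, this one, where 20.5% of 4749 genes did so.

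Its log2 difference between claw and scales was 1.49 (SE 0.12, adjusted p = 8.0e-07), 1.55 at morphogenesis and 1.43 at placode. ENSGALG00000000299 was an abundant transcript in alligator as in the birds. It held 495 and 662 TPM in claw at morphogenesis against 400 and 374 TPM in femoral and 316 and 236 TPM in flank scales, and 272 and 221 TPM in claw at placode against 174 and 171 TPM in femoral and 232 and 216 TPM in flank scales. It was 0.57 higher in claw (SE 0.10, adjusted p = 0.00028), mainly at morphogenesis, where the difference was 0.81 (adjusted p = 0.00030), against 0.32 at placode (adjusted p = 0.070), though the test between stages did not pass (adjusted p = 0.070 by limma). With quantile normalization the difference was 0.16 (adjusted p = 0.13) and was not called. In all, 2 of the 2 members tested were called higher in claw, where 42.0% of all 7811 genes were, a background so high that the 2 calls say little about the members as a group. ENSGALG00000009514 was below the filter, at 0.529 to 1.25 TPM in claw against 0.0915 to 0.599 TPM in scales. With no filter on low values it was 0.41 higher in claw (adjusted p = 0.0025 by limma).

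Claw, femoral and flank libraries were run in separate lanes, and the effect of lane cannot be told apart from that of appendage. The claw embryos were not older than the scale embryos. Between femoral scales, which lie on the leg, and flank scales 0 of 2 members were called, where 3.38% of all genes were. The differences were 0.38 for ENSGALG00000016123 (SE 0.14, adjusted p = 0.17) and 0.062 for ENSGALG00000000299 (SE 0.11, adjusted p = 0.81), and 1 of the 2 had an unadjusted p under 0.05 by limma. At morphogenesis 2 of 2 members were higher than at placode, where 13.8% of all genes were. The increases were 0.89 for ENSGALG00000000299 (SE 0.09, adjusted p = 2.2e-05) and 0.41 for ENSGALG00000016123 (SE 0.12, adjusted p = 0.011). In this comparison the median of all genes was -0.18 and was 0.0072 after median-of-ratios rescaling, and the share of called genes that were higher was 23.3% and 52.4% under the 2 scalings. After rescaling the 2 increases were 1.09 and 0.59.

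The members varied among themselves. Over the 12 chicken foot libraries the levels of ENSGALG00000000299 and ENSGALG00000009514 ran most closely together, with a Spearman rho of 0.92, while for ENSGALG00000016123 and ENSGALG00000011166 it was 0.014. Over the 10 emu foot libraries ENSGALG00000007280 and ENSGALG00000014244 had a rho of 0.92. These libraries share appendage and stage, and the values are descriptions.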

How the data were processed

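The authors deposited 1 table of TPM values for 17889 genes and 60 libraries, with chicken gene identifiers for every species; emu and alligator columns are called scaled in the labels. Per the labels' protocols, epidermis was freed with dispase, and polyadenylated RNA gave strand-specific libraries. Tools in the submitters' processing notes are TopHat2 2.0.6, HTSeq 0.5.3p9 and CASAVA, listed without their roles. The genome builds were not given in the sources used here. TPM keeps no read depth, so depth is unknown and no counting interval or floor is given.

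The members were chosen with the stated rule, and the members, tests and lists were chosen with earlier results of these data known. All 7 members are named, and of other genes only the 2 nearest the threshold on the outer side. None of the identifiers matched a symbol, so marker lists by symbol could not be applied; layer genes defined from the chicken libraries stand in, with a log2 difference of at least 2 between layers. Groups came from the labels. In R 4.3.3, limma 3.58.1 fitted group means to log2(TPM + 1), with a variance trend and robust moderation, and p-values were adjusted by Benjamini-Hochberg over all genes tested, at 0.05. This scale understates changes of low genes. A gene entered where it reached 1 TPM in 2 libraries of each species in the fit. Chicken dermis, with 1 library per class, was fitted with additive terms for appendage and stage. Where a group held 1 library, it was taken to vary like the others. Fits were tested on simulated data.

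Femoral and dorsal feather libraries were taken to share specimens where the titles carry the same number at the same stage. In emu, number 11 is on a dorsal feather library of stage 36 and a scutate library of stage 37. Number 16 is on an emu claw library of stage 38 and a scutate library of stage 40. Whether a number always marks 1 embryo is therefore unclear. Within a stage and bird, deviations of libraries of the same number had correlations of 0.36, 0.36, 0.29 and 0.13. With 2 libraries per group the deviations mirror each other. Emu pairs of different numbers therefore also reached 0.29 and 0.13, and the values cannot show that the numbers pair the libraries. A fit of 12 libraries from 6 specimens, with the specimen as a block, was run for femoral against dorsal feathers. Other alternatives were a pseudocount of 0.1, no filter, median-of-ratios and quantile scaling, each bird alone and each library left out. Feather tracts were also averaged by specimen, in the stage fits and in the fit of foot against feather dermis. The 60 libraries held 0 pairs of identical columns, and 0 columns were left unused.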

Additional observations from a re-analysis of the deposited data

Results flagged for a closer look

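In 9 tests of a difference between groups, among many more run on the members, a member passed the threshold by limma at an adjusted p under 0.05. Of all genes, 9.45% were called higher in chicken in the test between birds of the feather change. Between foot and feather changes, 34.7% were called in either direction, 32.8% within chicken, and 3.25% were called greater in the foot within emu. No labelled group held 4 or more libraries, so single libraries could not be examined as outliers within a group. The change with stage in feather epidermis was greater in chicken than in emu for ENSGALG00000009514, by 2.73 on the log2 scale, and for ENSGALG00000016123, by 1.12. The change with stage was greater in the foot than in feathers for ENSGALG00000014244, by 1.31, and for ENSGALG00000007280, by 0.38. Within chicken the difference between foot and feather changes was 1.32 for ENSGALG00000014244, -1.16 for ENSGALG00000016123 and -1.02 for ENSGALG00000009514. Within emu it was 1.30 for ENSGALG00000014244 and 1.11 for ENSGALG00000009514, so the last gene went opposite ways in the 2 birds. With the feather tracts of a specimen averaged, 5 of the 9 were still called, those of ENSGALG00000009514 between birds, of ENSGALG00000016123 within chicken, and of ENSGALG00000014244 in both birds together and in each. Of all genes, 2.88% were then called higher in chicken between birds. Between foot and feather, 24.2% were called in either direction, 17.7% within chicken, and 2.07% were greater in the foot within emu. Feather and foot stages were sampled at different ages, and appendage and age cannot be told apart in the tests that set foot beside feather.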

How the results depend on the processing

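The number of members was 7 under the stated rule, 5 with a gap of at least 1 (5 of them among the 7), 9 with a pseudocount of 0.1 (5 among the 7), 9 with femoral feathers alone (7) and 6 with stages weighted equally (6). Among alternatives chosen after seeing the data, it was 7 with dorsal feathers alone (5 of them among the 7), 11 after median-of-ratios rescaling (4 of them among the 7) and 5 to 9 with 1 bird library left out. ENSGALG00000016123, ENSGALG00000009514 and ENSGALG00000007280 kept their place in all 38 of those, ENSGALG00000000299 in 36, ENSGALG00000011166 in 31, and ENSGALG00000006722 and ENSGALG00000014244 in 27 each. Median-of-ratios rescaling dropped ENSGALG00000009514, ENSGALG00000011166 and ENSGALG00000014244 from the group. Quantile normalization left 1 member called higher in alligator claw and turned ENSGALG00000000299 to -0.012 between femoral and flank scales. In emu alone, 3 members rose and 1 fell with stage in feathers, ENSGALG00000009514 at -0.64 (adjusted p = 0.0055 by limma), and ENSGALG00000007280 was at -0.054. Between femoral and dorsal feathers, emu alone gave 1 member lower, ENSGALG00000009514, and 0.0014 for ENSGALG00000007280, and chicken alone gave 0.034 for ENSGALG00000016123. With a pseudocount of 0.1 ENSGALG00000000299 was at -0.091 between foot and feather dermis. Leaving out 1 library, the femoral minus dorsal value of ENSGALG00000007280 ran from -0.13 to 0.041, and the femoral minus flank value of ENSGALG00000000299 from -0.042 to 0.17. In dermis the foot minus feather value ran from -0.59 to 0.22 for ENSGALG00000006722, from -1.23 to 0.59 for ENSGALG00000007280 and from -0.10 to 0.63 for ENSGALG00000000299, and 0 to 1 members were called higher. With the feather tracts of a specimen averaged, an alternative also chosen after seeing the data, 4 members rose with stage in feathers. The causes were not tested. Where no share of all genes stands beside a count of called members here, nothing is read from it. The replicate block by specimen left 0 members called between tracts and changed no call, with -0.73 for ENSGALG00000009514. Emu reticulate and claw placode had 1 library each, and leaving either out gave no value for the foot.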
